A study of Mus musculus with 1 sample.

Results

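The enzymes that add and remove methyl groups on DNA, and methyl and acetyl groups on histones, were examined in wild-type mouse ovarian surface epithelial cells. Members were chosen by gene symbol alone: DNA methyltransferases with Uhrf1, Tet dioxygenases, histone lysine and arginine methyltransferases, lysine demethylases, acetyltransferases, histone deacetylases and sirtuins. Kdm5c, Kdm5d and Kdm6a were left out. The rule found 81 genes, measured by 194 probe sets, among 18193 genes that had a probe set with a single gene symbol. Total RNA came from mice aged 3 months and was hybridised to a single Affymetrix mouse expression array, which gave an intensity for each of 45101 probe sets. The series design names several mouse genotypes, but only the 1 wild-type sample was analysed here, so there was no comparison between genotypes, no replicate error and no test. An array has no read depth, and the single array leaves the precision of every level unknown.

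DNA methyltransferases place a methyl group on cytosine, mostly at CpG dinucleotides, and Tet enzymes oxidise that group as a step towards its removal. Histone methyltransferases, demethylases, acetyltransferases and deacetylases set marks on histone tails that go with active or silent chromatin. Polycomb repressive complex PRC2 writes methylation at lysine 27 of histone H3, abbreviated H3K27, and COMPASS complexes write it at lysine 4, H3K4.

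Nearly the whole set of enzymes was detected in these cells. The brightest probe set of 76 of the 81 genes exceeded the background limit, or 93.8%, against 62.8% of all 18193 named genes. A gene above the limit is called detected here. The limit, an intensity of 46.5, was the 95th percentile of a background of 126 probe sets, which read odorant, pheromone and bitter receptors or keratin-associated proteins and have no expected signal in ovary. The 5 genes not above it were Dnmt3l, Tet3, Prmt8, Hdac8 and Hdac9. Each was read by 1 probe set except Hdac9, which had 2.

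Genes with more probe sets pass a limit on the brightest of them more often, so the counts were also taken within genes of equal probe set number. Of member genes with 1 probe set 23 of 27 were above the limit, or 85.2%, against 47.3% of all named genes with 1. With 2 probe sets the count was 22 of 23, or 95.7%, against 71.8%. All 16 members with 3 and all 15 with 4 or more were above it, against 82.9% and 90.2% of such genes on the array. Counted per probe set, 132 of 194 member probe sets exceeded the limit, or 68.0%, against 55.1% of the 34945 probe sets with a single symbol. The counts by class and list below were not matched for probe set number. Many of their genes had several probe sets, so a full count does not by itself set a small class apart.

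**Figure D1:**
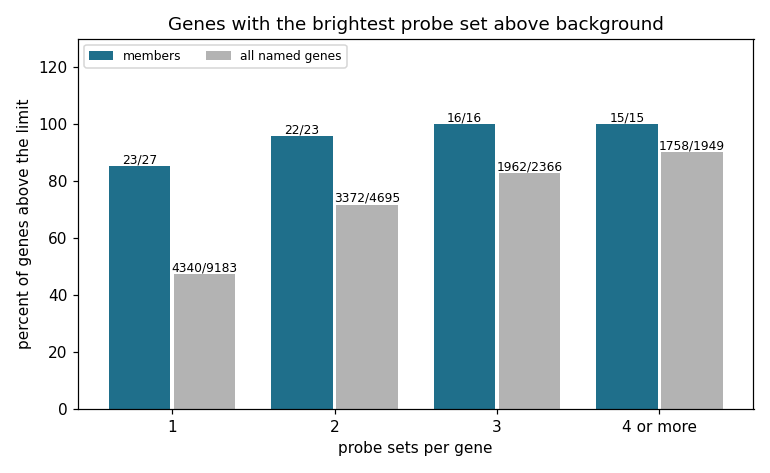
Percent of genes whose brightest probe set exceeded the background limit (vertical axis) by the number of probe sets per gene (horizontal axis), for members (blue) and all named genes (grey), with counts over the bars. The members' bar is the taller one in each of the 4 strata, 85.2% against 47.3% for genes with 1 probe set.

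The members had higher median levels than all named genes, by a smaller margin among detected genes. The members' probe sets ran between 8 and 2769 with a median of 171, and the median of all probe sets with a single symbol was 64. The median level of the brightest probe set was 8.87 on the log2 scale over the 81 members, and 7.06 over all named genes. Among genes above the limit these medians were 8.93 for members and 8.69 for all named genes. No member exceeded 2769, an intensity that 937 named genes, or 5.15%, passed. Probe sets of different genes differ in how strongly they bind their target, so members are not ranked against one another below.

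**Figure D2:**
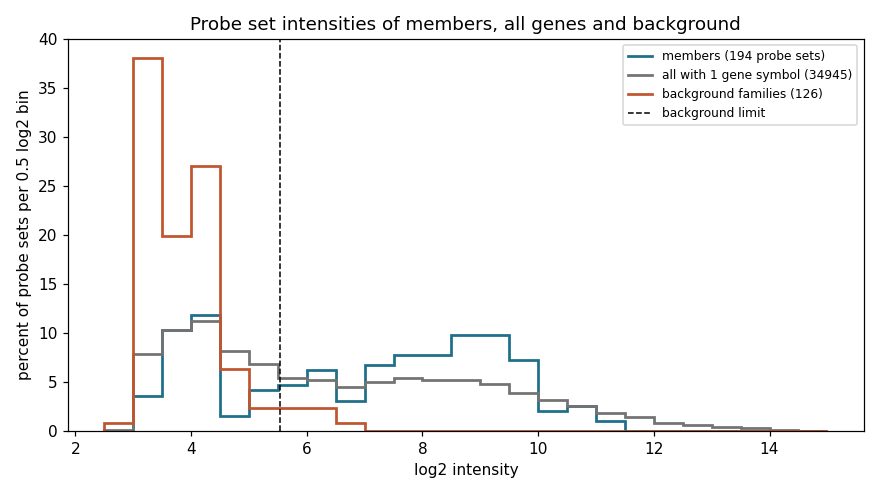
Percent of probe sets (vertical axis) in bins of log2 intensity (horizontal axis) for members (blue, 194), all probe sets with a single symbol (grey, 34945) and the background families (orange, 126). The dashed line is the limit at 5.54, and 132 member probe sets lie to its right, none of them beyond the level of 2769 on the linear scale.

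Markers of the cell types that the preparation could hold were read on the same array. All 6 surface epithelial and mesothelial markers were above the limit, among them the keratins Krt8 with 3 probe sets between 3172 and 4573, Krt18 at 3377 and Krt19 at 4897. All 4 fibroblast markers were also above it, with Col1a1 at 6440 and 8290, Dcn at 15048 and 47, and Pdgfra at 916 on its brightest. So were the 4 macrophage markers, among them Csf1r between 80 and 527, C1qa at 244 and Adgre1 at 47, just above the limit of 46.5. Of 4 endothelial markers Kdr was above it, at 1813, and Pecam1 at 14, Cdh5 at 23 or less and Tek at 21 were not. Of 4 granulosa markers Inha at 1438, Amh at 58 and Foxl2, with 321 and 11 on its 2 probe sets, were above it and Fshr at 34 was not. None of the 6 oocyte markers was above it: Zp3 read 20, Gdf9 42, Zp2 16, Oosp1 11, Nlrp5 23 and Bmp15 at most 18. All 7 measured proliferation markers were above it, including Mki67 at 574, Top2a at 569 on its brightest, Cdk1 at 713 and Pcna at 2613. Aurkb, at 76 and 72, was below 84.75, the 99th percentile of the same background. A mixed RNA sample does not assign an enzyme's transcript to one of these cells, and fewer cells of a type cannot be told apart from less RNA per cell.

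The promoters of members on both sides of the limit are shown because the enzymes of the first group act on CpG dinucleotides, and CpG content differed between detected and undetected genes on this array. Each line gives the 250 bases before a RefSeq start site, build GRCm38.p6, read 5′ to 3′ along the gene, with CpG dinucleotides in capitals. Where a gene had several starts, the one with most CpG is given. Such a start can lie downstream of another, so its window can hold transcribed bases and is called a promoter only for short. Dnmt3l, Hdac9 and Prmt8 were not above the limit, and Dnmt1 and Uhrf1 were.
Dnmt3l promoter, chr10:78042037-78042286, plus strand: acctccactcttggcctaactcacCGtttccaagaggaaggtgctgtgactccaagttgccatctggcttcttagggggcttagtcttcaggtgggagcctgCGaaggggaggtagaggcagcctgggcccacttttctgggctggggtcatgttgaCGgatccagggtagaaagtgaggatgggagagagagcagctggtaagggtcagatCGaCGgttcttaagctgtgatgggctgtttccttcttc
Hdac9 promoter, chr12:34528890-34529139, minus strand: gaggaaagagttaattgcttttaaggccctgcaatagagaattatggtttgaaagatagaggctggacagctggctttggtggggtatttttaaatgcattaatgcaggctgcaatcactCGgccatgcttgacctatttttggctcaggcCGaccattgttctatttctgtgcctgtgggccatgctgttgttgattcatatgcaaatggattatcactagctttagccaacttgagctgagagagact
Prmt8 promoter, chr6:127769156-127769405, minus strand: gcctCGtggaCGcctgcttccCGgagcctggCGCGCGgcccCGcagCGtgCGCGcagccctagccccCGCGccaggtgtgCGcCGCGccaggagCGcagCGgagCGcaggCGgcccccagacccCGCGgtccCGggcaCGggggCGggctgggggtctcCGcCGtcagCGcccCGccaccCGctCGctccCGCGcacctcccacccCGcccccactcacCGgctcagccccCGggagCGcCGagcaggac
Dnmt1 promoter, chr9:20952624-20952873, minus strand: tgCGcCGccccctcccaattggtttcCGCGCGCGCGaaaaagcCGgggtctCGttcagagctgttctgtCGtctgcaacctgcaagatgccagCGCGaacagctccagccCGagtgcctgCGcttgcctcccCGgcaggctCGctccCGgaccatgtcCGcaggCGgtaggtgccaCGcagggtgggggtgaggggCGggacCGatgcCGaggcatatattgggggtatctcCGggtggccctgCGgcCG
Uhrf1 promoter, chr17:56304063-56304312, plus strand: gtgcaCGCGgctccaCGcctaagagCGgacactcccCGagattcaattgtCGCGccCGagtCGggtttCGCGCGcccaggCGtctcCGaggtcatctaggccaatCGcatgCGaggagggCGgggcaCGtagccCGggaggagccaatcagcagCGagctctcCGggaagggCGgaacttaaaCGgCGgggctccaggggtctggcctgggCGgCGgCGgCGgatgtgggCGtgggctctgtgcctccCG

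The promoters of Dnmt3l and Hdac9 held 5 and 2 CpG, and that of Hdac8, which was also not above the limit, held 6. Prmt8 and Tet3, the remaining pair not above the limit, had 37 and 17. Across the 5 undetected members the median was 6, against 21 for the 63 detected members with a promoter in the table. All named genes showed a like difference: a median of 5 CpG for the 5185 not above the limit and of 17 for the 9267 above it. Of named genes with 0 to 4 CpG 22.6% were above the limit, compared with 84.7% of those with 20 to 29. Detection did not follow CpG content in every member: Setd5, with no CpG in this window, had a brightest probe set at 879, and Kat2b, with 6, had 1994. Only 1 start is listed for Setd5. Kat2b read 16 and 20 on its other probe sets, and the identifier of the one at 1994 marks several transcripts or shared probes. Promoters of 68 of the 81 members were in the table and the other 13 were not examined. Of the 68 members, 20 had several starts. Taking the start with most CpG favours genes with more starts. The groups compared here, and those compared for motifs below, were not matched for start number.

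**Figure D3:**
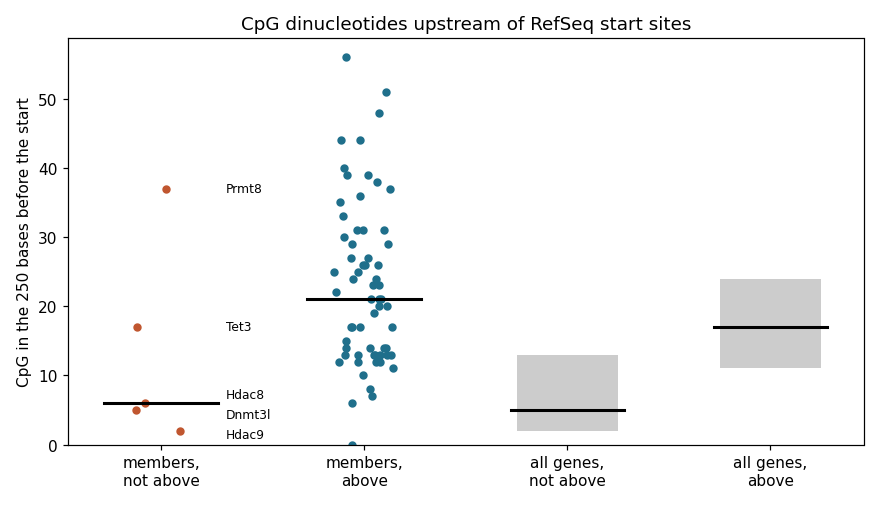
CpG dinucleotides in the 250 bases before the start site (vertical axis) for members not above and above the background limit (points, 5 and 63 genes) and for all named genes not above and above it (grey boxes from the 25th to the 75th percentile). Black lines are medians, at 6, 21, 5 and 17. Prmt8, with 37 CpG, stands apart from the other undetected members.

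Promoters of Dnmt1 and Uhrf1 also held a match to the E2F motif, the binding sequence of factors that drive genes of DNA replication. The forms searched, on both strands, were TTTGGCGC, TTTCCCGC and TTTCGCGC. In Dnmt1 the form TTTCGCGC lay on the opposite strand with its edge 219 bases before the start with most CpG. In Uhrf1 it lay on the gene's strand, 185 bases before the start chosen in the same way. RefSeq lists 3 starts for Dnmt1 and 2 for Uhrf1, so the distance of either match from the start in use is not known. Suz12, Kmt5c and Sirt4 had the form TTTCCCGC, so that 5 of 68 member promoters held a match, or 7.35%, against 2.47% of the 14452 promoters of named genes. The GC box GGGCGG occurred in 67.6% of member promoters and 52.0% of all and the CCAAT box CCAAT in 39.7% and 34.9%. A GC box and the E2F form TTTCCCGC can share bases, and a match describes letters only. Each E2F form and the GC box contain a CpG, and the median CpG count was 21 in member promoters and 14 in all. The part of CpG content in these shares was not tested, and 5 matches are few.

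The maintenance and the de novo DNA methyltransferases were detected, and their germline cofactor was not. Dnmt1, which copies methylation onto newly made DNA strands, had intensities of 568, 470 and 154, all above the limit. Uhrf1, which recruits Dnmt1 to hemimethylated sites, had 148 on 1 probe set and 36 on the other, so its readings lay on both sides. Dnmt3a, a de novo methyltransferase, had 5 probe sets between 113 and 1651, all above. Dnmt3b, the other de novo enzyme, had 74 and 73, both above 46.5 and below 84.75, the 99th percentile of the same background. Dnmt3l, a catalytically inactive partner of the de novo enzymes known from germ cells and early embryos, had 21, while the oocyte markers reached at most 42. RefSeq lists 3 starts for Dnmt1, with 26, 7 and 2 CpG, and the probe set intensities do not show which was used. All proliferation markers measured were detected on this array, and their part in the readings of Dnmt1 and Uhrf1 was not tested.

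Of the Tet dioxygenases, Tet2 was read clearly. Its 2 probe sets had 193 and 480. Tet1 had 4 probe sets, of which those at 71 and 88 exceeded the limit and those at 15 and 20 did not. Tet3 had a single probe set at 38, the closest of the undetected members to the limit, from which it differed by -0.29 on the log2 scale. Tet3 was detected when the 90th percentile was used instead, or when odorant and pheromone receptors alone set the background.

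**Figure D4:**
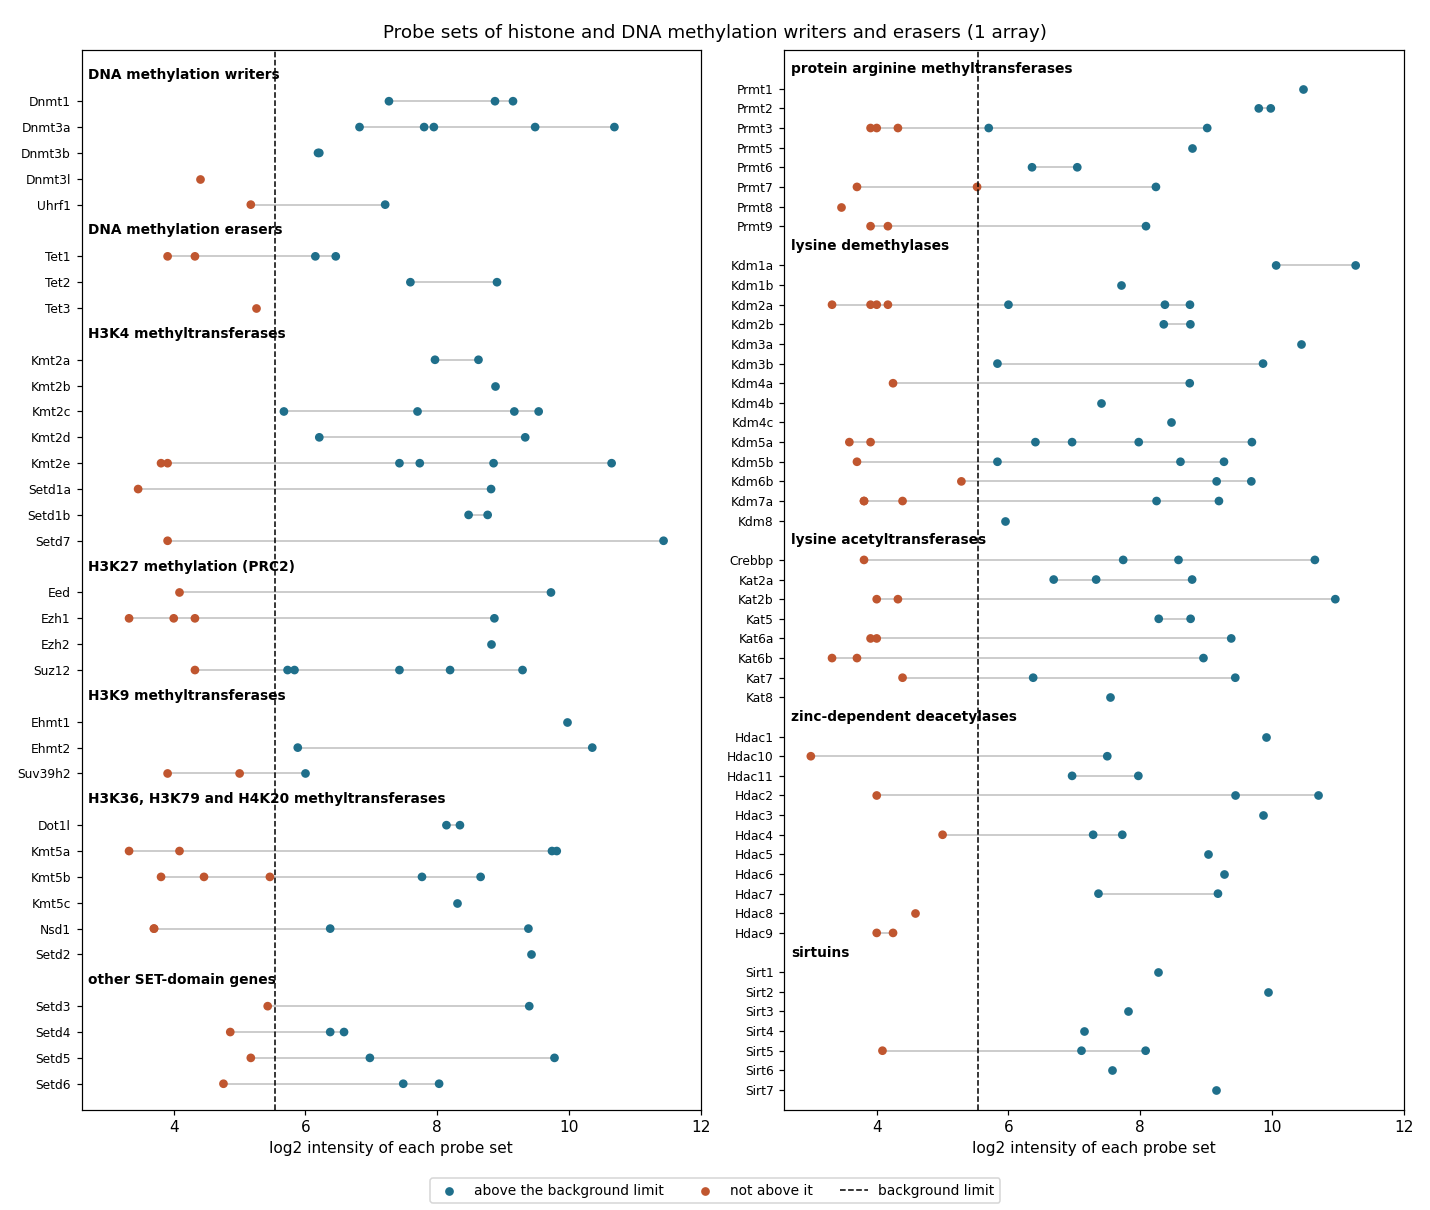
Log2 intensity (horizontal axis) of each of the 194 probe sets of the 81 members (vertical axis), grouped by enzyme class, with grey lines joining the probe sets of a gene. Blue points exceed the background limit (dashed line, 5.54), orange points do not. Only Dnmt3l, Tet3, Prmt8, Hdac8 and Hdac9 have no blue point, and 34 genes have points of both colours.

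All 8 genes grouped with the H3K4 methyltransferases, 7 of them with several probe sets, were above the limit. Kmt2a and Kmt2b form COMPASS-type complexes with menin. Kmt2a had 250 and 395, and Kmt2b had 469 on its single probe set. Kmt2c and Kmt2d write the H3K4 monomethylation found at enhancers. Kmt2c had 4 probe sets between 51 and 744, and Kmt2d had a pair at 74 and 646. Setd1a and Setd1b, the catalytic subunits of the SET1 COMPASS complexes, had brightest probe sets at 451 and 435. Kmt2e, grouped here as a relative of this family and not by its activity, was detected by 4 of 6 probe sets, up to 1603. Setd7, a monomethyltransferase of H3K4 and of several other proteins, had 2769 on 1 probe set and 15 on the other, which was not above the limit. Subunits of COMPASS complexes, some shared and some particular to one complex, were detected too: all 10 listed were above the limit, among them Wdr5 at 539, Ash2l at 673 and Rbbp5 at 293 on their brightest.

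All 4 members that encode PRC2 subunits were above the limit. Ezh2, the catalytic subunit prominent in dividing cells, had 451 on its single probe set. Ezh1, its paralog of resting cells, had 467 on 1 of 4 probe sets and 10, 16 and 20 on the others. Eed, which binds methylated H3K27, had 847 and 17. Suz12, the scaffold subunit, was detected by 5 of 6 probe sets, up to 628, with its lowest at 20. Without probe sets whose identifiers mark several transcripts or shared probes, Ezh1 was no longer above the limit. All 20 measured further subunits of PRC2 and members of PRC1 were above it. Rbbp4 had 6494, Rbbp7 11270 and Jarid2 624 on their brightest, and Phf19 had 49, just above the limit.

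All 3 members that methylate H3K9, a site whose methylation goes with silent chromatin, were above the limit. Ehmt1 and Ehmt2 act as partners in mono- and dimethylation. Ehmt1 had 1006 on its single probe set, and Ehmt2 had 1308 and 59. Suv39h2, which trimethylates H3K9 in heterochromatin, had 15, 32 and 64 on its 3 probe sets, and only the last was detected, with a margin of 0.46 in log2 units. Suv39h1 was not analysed here.

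The 6 enzymes of H3K36, H3K79 and H4K20 were detected. Setd2, which trimethylates H3K36 in transcribed genes, had 689. Nsd1, an H3K36 dimethyltransferase, had 668 and 83 on a pair of probe sets above the limit and 13 on each of a further pair. Dot1l, the enzyme of H3K79, had 325 and 282. Kmt5a, which writes H4K20 monomethylation in cycling cells, had 900 and 856 on 2 of its 4 probe sets and 10 and 17 on the others. Kmt5b and Kmt5c, which extend that mark, had brightest probe sets at 404 and 314.

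Among the other SET-domain genes, Setd3, an actin histidine methyltransferase, had 674 and 43, and Setd6, which methylates the NF-kappaB subunit RelA, had 261, 179 and 27. Setd4 had 96, 83 and 29, and Setd5 had 879, 126 and 36. All 4 genes had readings on both sides of the limit.

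Of the protein arginine methyltransferases 7 of 8 were above the limit. Prmt1, the main enzyme of asymmetric dimethylation, had 1419, and Prmt5, the main enzyme of symmetric dimethylation, had 441. Prmt2 had 1011 and 891. Prmt3, which acts on a ribosomal protein, was detected by 2 of 5 probe sets, up to 518. Prmt6, which methylates arginine 2 of histone H3, had 132 and 82. Prmt7, a monomethyltransferase, and Prmt9, which modifies a splicing factor, had 1 of 3 probe sets above the limit each, at 302 and 272. Prmt8, a membrane-bound enzyme known mainly from neurons, had 11 on its single probe set, which differed from the limit by -2.08 on the log2 scale.

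All 14 lysine demethylases, 9 of them with several probe sets, were above the limit. Kdm1a, a flavin-dependent eraser of H3K4 methylation found with deacetylases in the CoREST complex, had 1070 and 2470, and its paralog Kdm1b had 210. Kdm2a and Kdm2b, erasers of H3K36 methylation that bind unmethylated CpG, differed in how uniformly they were read. Kdm2a was detected by 3 of 7 probe sets, up to 432, whereas Kdm2b was detected by both, at 328 and 434. Kdm3a, an eraser of H3K9 methylation, had 1384, and its paralog Kdm3b had 932 and 57. Kdm4a, Kdm4b and Kdm4c, which act on H3K9 and H3K36, had brightest probe sets at 431, 170 and 353. Kdm5a and Kdm5b, erasers of H3K4 trimethylation, were detected by 4 of 6 and by 3 of 4 probe sets, up to 829 and 618. Kdm6b, an inducible eraser of H3K27 methylation, had 824, 572 and 39. Kdm7a, with activity on H3K9 and H3K27, was detected by 2 of 5, up to 586. Kdm8 had 62, within 0.42 of the limit on the log2 scale, and was no longer above it with the 99th percentile or with taste receptors and keratin-associated proteins as background.

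All 8 lysine acetyltransferases, 7 of them with several probe sets, were above the limit. Crebbp, the coactivator of H3K27 acetylation, had 1608, 383 and 214 on 3 probe sets and 14 on the fourth, and its paralog Ep300, outside the rule, had 929. Kat2a and Kat2b, alternative catalytic subunits of the SAGA complex, had brightest probe sets at 442 and 1994. Kat2a was read by all of its 3 probe sets, from 103 upwards, while Kat2b had 16 and 20 on its other pair. Kat5, of the TIP60 complex, had 435 and 311. Kat6a and Kat6b, large enzymes acting on histone H3, had 1 of 3 probe sets above the limit each, at 667 and 498. Kat7, active at replication origins, had 696, 83 and 21, and Kat8, which acetylates lysine 16 of histone H4, had 187.

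Zinc-dependent deacetylases were above the limit in 9 of 11 cases. The class I enzymes Hdac1, Hdac2 and Hdac3, catalytic subunits of the SIN3, NuRD and NCoR complexes, had brightest probe sets at 958, 1671 and 930, and Hdac2 also had one at 16. Hdac8, the class I enzyme that deacetylates cohesin, had 24 on its single probe set and was not above the limit. Of class IIa, whose members shuttle between nucleus and cytoplasm, Hdac4, Hdac5 and Hdac7 were detected, with brightest probe sets at 212, 524 and 580. Hdac9, the class IIa member known from muscle, brain and T cells, had 16 and 19. Hdac6, a tubulin deacetylase, had 620, Hdac10 had 181 and 8, and Hdac11, the class IV enzyme, had 251 and 125. All 15 measured subunits of deacetylase complexes were above the limit, with Sin3a at 501, Sin3b at 1609 and Mta1 at 534 on their brightest.

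All 7 sirtuins, deacylases that consume NAD, were above the limit. The nuclear enzymes Sirt1, Sirt6 and Sirt7 had 308, 190 and 571. Sirt2, mostly cytoplasmic, had 982. The mitochondrial enzymes Sirt3 and Sirt4 had 225 and 142, and Sirt5 had 271, 138 and 17.

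Readers and suppliers of these marks were detected alongside, with few exceptions. Of 11 measured readers of methyl-CpG and histone marks 10 were above the limit, including Mbd1 at 1111, Mbd2 at 1146 and Mbd4 at 67 on their brightest. The exception was Brdt, a testis bromodomain protein, at 26 or less. Of 9 measured genes of cofactor supply 8 were above it, with Mat2b, a regulator of the methyl donor enzyme, at 1890 and Ahcy, which clears the by-product of methylation, at 5025. Mat1a, the liver form of that enzyme, had 13. Of 22 measured related enzymes outside the rule 20 were above the limit, with the H3K9 methyltransferases Setdb1 at 354 and Setdb2 at 133 on their brightest. Prdm9, a meiotic H3K4 methyltransferase, had 29, and Mecom had at most 34. Over all named genes 62.8% were above the limit, and 90.2% of those with 4 or more probe sets. Many genes of these lists had several probe sets, so counts this small do not set the lists apart.

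Probe sets of the same enzyme often disagreed. Of 54 members with several probe sets 34 had readings on both sides of the limit, or 63.0%, against 46.7% of all named genes with several. In 19 all readings were above it and in 1, Hdac9, none was. The median SD between probe sets of a member was 2.18 on the log2 scale, against 1.39 for all named genes with several, readings not above the limit included. This spread is between probe sets on 1 array and is not a replicate error. A gene with no probe set above the limit cannot have readings on both sides. Of genes with 2 probe sets 95.7% of members and 71.8% of all named genes were above it. Neither the shares nor the SDs were compared among detected genes of equal probe set number, so they do not set these enzymes apart.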

How the data were processed

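Total RNA of 1 wild-type sample was measured on an Affymetrix array. The deposited values are intensities, 1 per probe set, whole numbers between 6 and 32341 on a linear scale. Tools named are affy and RMA, per the submitters' processing notes. Their versions, the set of arrays normalized together and the step back to a linear scale are not stated there. At the limit, rounding to whole numbers can shift a log2 value by 0.0154.

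Levels were taken as log2 of intensity. Gene names came from the platform annotation, where 34945 probe sets had 1 symbol, 932 several and 9160 none, and 64 were controls. Only the first kind was counted. All 194 member probe sets matched the RefSeq gene table of GRCm38.p6 by gene number, and promoters come from RefSeq of that build. A gene's level was its brightest probe set. By construction 7 of 126 background probe sets exceeded the limit. All members may be named. From other lists the first 3 measured and those not above the limit were named, except for genes of other organs, used as a background only. Phf19, Pcna, Aurkb, Kdr, Foxl2 and Mbp were named outside this rule, with their values known. Members, lists, limit and alternatives were chosen with earlier results of these data known. The counting was tested on simulated data. Tools were Python (3.11.15), pandas (2.3.3), NumPy (2.4.6) and, for figures, matplotlib (3.10.9).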

Additional observations from a re-analysis of the deposited data

Results flagged for a closer look

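One probe set that reads a member stayed outside all counts because the annotation pairs it with 2 symbols, Kdm6b and 1700064E03Rik. Its intensity was 158, above the background limit of 46.5. The annotation does not separate the transcripts of these genes, and the 3 probe sets assigned to Kdm6b alone had 824, 572 and 39.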

How the results depend on the processing

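The count of 76 detected members stayed between 54 and 77 under 7 of 8 other settings, within 1.5 times of the count reported. Taking each gene's lowest probe set in place of the brightest, it was 42 of 81, or 51.9%, against 39.7% of all named genes. With genes restricted to other organs as background the limit rose to 315.25, since that list held Mbp, whose brightest probe set read 2526. Under that limit 54 of 81 members, against 36.5% of all named genes, were above it, as were 68 of 194 member probe sets, or 35.1%, against 26.9% of all with a single symbol. Detected members were then 2 of 5 DNA methylation writers, 1 of 3 erasers, 2 of 4 other SET-domain genes, 4 of 8 arginine methyltransferases and 2 of 7 sirtuins. Without marked identifiers 2 DNA methylation writers had a probe set left, and both were above the limit, while Ezh1, Kat2b and Setd3 were no longer above it. Class counts were also taken with the 90th and 99th percentiles and with the other background families, and were then within 1.5 times of the counts reported. With the mean of a gene's probe sets 68 of 81 members were above the limit, or 84.0%, against 57.6% of all named genes, and Ezh1, Hdac10, Kat6b, Kdm2a, Prmt3, Prmt9, Suv39h2 and Tet1 were not, which left 1 of 3 DNA methylation erasers. No paired analysis was possible because a single array was analysed. Tet3, Kdm8, Suv39h2 and Dnmt3b read close to background, and their side of the limit changed with its percentile.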

Other observations

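Probe sets designed on sequences whose accession begins with BB, a series of mouse expressed sequence tags, made up 48 of the 194 member probe sets. Of these, 23 exceeded the limit, or 47.9%, compared with 14 of 19 designed on RefSeq entries, or 73.7%, and 80 of 106 designed on other accessions, or 75.5%. Over all probe sets with a single symbol the shares were 44.4%, 59.0% and 56.8%. Among the 188 probe sets of detected members 56 were not above the limit, and 23 of these 56 were of the BB series. Without the BB series, an alternative chosen after seeing the data, 69 of 74 remaining members were above the limit, or 93.2%, against 62.6% of all named genes. Suv39h2 was then no longer above it, and 7 members, among them Tet3, Uhrf1 and Dnmt3a, had no probe set left.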
